A study of Homo sapiens with 6 samples.

Results

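The genes described here are 40 names linked to the cellular response to low oxygen, most of them targets of the hypoxia-inducible factors (HIF) outside the core glycolytic enzymes and VEGFA. They were selected as HIF targets with the FPKM values of these same libraries already known. The comparison of control replicates 1 and 3 and TAX replicate 2 with the other libraries was chosen on those values, so it is given as a description with no test. Of the 40 names, 37 had a row among the 23062 identifiers and 34 reached the level needed for testing. The names INSIG2-AS, VLDLR-AS1 and RORA-AS1 had no row, and CA9, CA12 and SLC2A3 were too low to be tested.

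The cells were DU145, an established line of human prostate carcinoma that grows without androgen, labelled as wild type. RNA was sequenced in 3 libraries of control cells kept in medium and in 3 libraries of cells given taraxasterol (TAX), a plant triterpene, at its IC50 for 48 h. All cells grew in MEM with serum, and no library was labelled as exposed to low oxygen. TAX was dissolved in DMSO, and the sources used here do not state whether DMSO was added to the controls. The labels do not say whether the replicates of a group came from separate cultures, so the p-values measure only the spread between these libraries.

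HIF is a transcription factor made of an oxygen-sensitive alpha subunit, encoded by HIF1A or EPAS1, and a stable partner encoded by ARNT. With oxygen present, prolyl hydroxylases such as those of EGLN1 and EGLN3 mark the alpha subunit, VHL binds it and the proteasome degrades it. When oxygen is low the subunit is kept and binds short sequences with the core ACGTG or GCGTG near its target genes, which serve glucose uptake, acid export, collagen maturation, removal of mitochondria and signaling to blood vessels. Control of the alpha subunit is mostly at the protein level, so the RNA level of HIF1A is not a measure of HIF activity.

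The 250 bases before the start site are shown for 4 members that stand among those that differed most between libraries. Each has a single start site listed in the RefSeq promoter set used here, with at least 1 HIF core before it. The sequences are those of RefSeq (GRCh38.p14), plus strand, written 5′ to 3′ and ending at the base before the start site, and the capitals mark ACGTG or GCGTG on either strand. The ADM stretch lies at chr11:10304823-10305072, that of BHLHE40 at chr3:4979187-4979436, that of WSB1 at chr17:27293864-27294113 and that of ANKRD37 at chr4:185396591-185396840.
ADM: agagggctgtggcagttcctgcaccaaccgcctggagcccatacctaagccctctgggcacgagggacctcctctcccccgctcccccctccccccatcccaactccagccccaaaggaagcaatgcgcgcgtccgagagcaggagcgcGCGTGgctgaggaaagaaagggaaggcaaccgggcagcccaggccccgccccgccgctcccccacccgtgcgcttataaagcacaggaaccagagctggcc
BHLHE40: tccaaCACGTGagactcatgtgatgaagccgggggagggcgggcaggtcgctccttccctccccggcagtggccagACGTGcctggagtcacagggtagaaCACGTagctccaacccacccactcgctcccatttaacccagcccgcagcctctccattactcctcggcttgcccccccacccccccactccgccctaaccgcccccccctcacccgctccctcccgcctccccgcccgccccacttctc
WSB1: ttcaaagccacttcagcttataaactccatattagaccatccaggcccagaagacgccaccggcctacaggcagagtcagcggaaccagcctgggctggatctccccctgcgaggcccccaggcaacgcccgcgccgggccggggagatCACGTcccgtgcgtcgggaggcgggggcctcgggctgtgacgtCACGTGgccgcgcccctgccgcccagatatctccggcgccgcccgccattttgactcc
ANKRD37: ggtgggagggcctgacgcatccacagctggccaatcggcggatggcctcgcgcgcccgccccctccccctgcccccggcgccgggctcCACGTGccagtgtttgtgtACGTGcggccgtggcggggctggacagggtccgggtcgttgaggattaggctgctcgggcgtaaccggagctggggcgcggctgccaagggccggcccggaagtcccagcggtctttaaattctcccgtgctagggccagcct

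ADM held 1 match, which began 101 bases before the start site. WSB1 and ANKRD37 held 3 matches each and BHLHE40 held 4. In these last 3 genes a pair of the matches shares the palindrome CACGTG, which is read as a match on both strands. Of the 34 tested members 29 had at least 1 window in the RefSeq table, and 25 of these 29 held a core in at least 1 window. The share of all tested genes was not counted by gene, and a gene with several windows can hold a core more easily. By window, 32 of 40 (80.0%) held a core, beside 56.1% of the 13801 windows of all tested genes and 43.2% of all 35116 windows. A match is a run of letters and not a bound site, and the members were chosen as HIF targets.

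Values were FPKM, fragments per kilobase of transcript scaled to the fragments sequenced in each library. Groups were compared with limma after conversion to log2(FPKM + 1), and 12359 genes that reached 1 FPKM in 3 or more libraries were tested. The summed FPKM ranged from 322483 to 363724 and was lowest in control replicate 3, whose median over tested genes was 8.74 FPKM while the other libraries lay between 9.84 and 9.99. The mitochondrially encoded transcripts of the 8 genes examined summed to 41760 FPKM in control replicate 1 and to between 30001 and 33654 in the others. The epithelial genes KRT8, KRT18, KRT19, EPCAM and CDH1 were present in every library, and the androgen-driven genes KLK3 and KLK2 were listed at 0 in all. Of 11 markers of leukocytes, endothelium, fibroblasts and red cells, 5 were listed at 0 in all libraries, among them CD3E, COL1A2 and HBB, and only CD68 and COL1A1 reached the level for testing. No read counts were given, so depth is unknown and no counting interval can be stated. In bulk RNA a larger share of cells with a transcript and more of it per cell cannot be told apart.

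In comparison with control cells, 1 of the 34 tested members passed the test after TAX treatment, where 0.477% of all tested genes did (limma, adjusted p under 0.05). This was STC1, which encodes the secreted glycoprotein stanniocalcin. In replicates 1, 2 and 3 of the control, STC1 stood at 25.3, 25.5 and 18.6 FPKM, and in those of TAX at 36.8, 34.4 and 39.5 FPKM. Every TAX library lay above every control library. STC1 rose from 23.1 ± 3.95 FPKM to 36.9 ± 2.53 FPKM (SD, n = 3 each), a log2 fold change of 0.66 with a standard error of 0.12 (limma adjusted p = 0.0474). The exact two-sided permutation test of this gene gave p = 0.1, the smallest that 3 against 3 allow. The limma adjusted p of STC1 was under 0.05 in 3 of 13 alternative analyses and above it in each of the 6 that left out 1 library, with a range from 0.0286 to 0.275, while its log2 fold change stayed between 0.52 and 0.74. The summed level of the 11 markers of other cell types also lay higher in TAX cells, at 33.99 to 35.0 FPKM against 21.98 to 28.8 FPKM. Nearly all of it was CD68, which did not pass the test (limma adjusted p = 0.0884). Of the other leukocyte markers, CD3E was listed at 0 in all libraries and PTPRC reached at most 0.007 FPKM, in control replicate 3. COL1A1, the other marker tested, went the opposite way, with all TAX values below all control values (log2 fold change -0.30, limma adjusted p = 0.197). Of the 6 genes fixed as markers of epithelium and of DU145, KRT18, KRT19, EPCAM and the mesenchymal gene VIM had all TAX values above all control values, KRT8 overlapped between the groups and CDH1 overlapped with a log2 fold change of -0.16. None of the 6 passed the test (limma, smallest adjusted p of 0.336, 3 at an unadjusted p under 0.05), and the part of these markers in the rise of STC1 was not tested.

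Over the other members the differences between groups were small against the spread within them. At an unadjusted p under 0.05 there were 2 members, STC1 and DDIT4L, or 5.88% of those tested, beside 10.1% of all genes. All TAX values lay above all control values for 1 member, where 14.6% of all genes did so, and below them for 1 member, where 3.34% did so. The median log2 fold change of the members was 0.026, beside 0.054 for all tested genes, with 19 members higher and 15 lower. Of all 12359 tested genes, 8537 were higher and 3822 lower in TAX cells. With all libraries brought to one median, 14 members were higher and 20 lower, beside 6019 and 6340 of all tested genes. On that scale EPAS1, EGLN3, ERO1A, PLOD2 and DDIT4L had all TAX values below all control values, where 9.53% of all genes did. After quantile normalization these were EPAS1, EGLN3 and PLOD2, where 8.16% of all genes did. For 33 of the 34 members the 3 control libraries alone spanned more on the log2 scale than the difference between the groups, and STC1 was the exception, while 86.0% of all genes showed this.

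**Figure D1:**
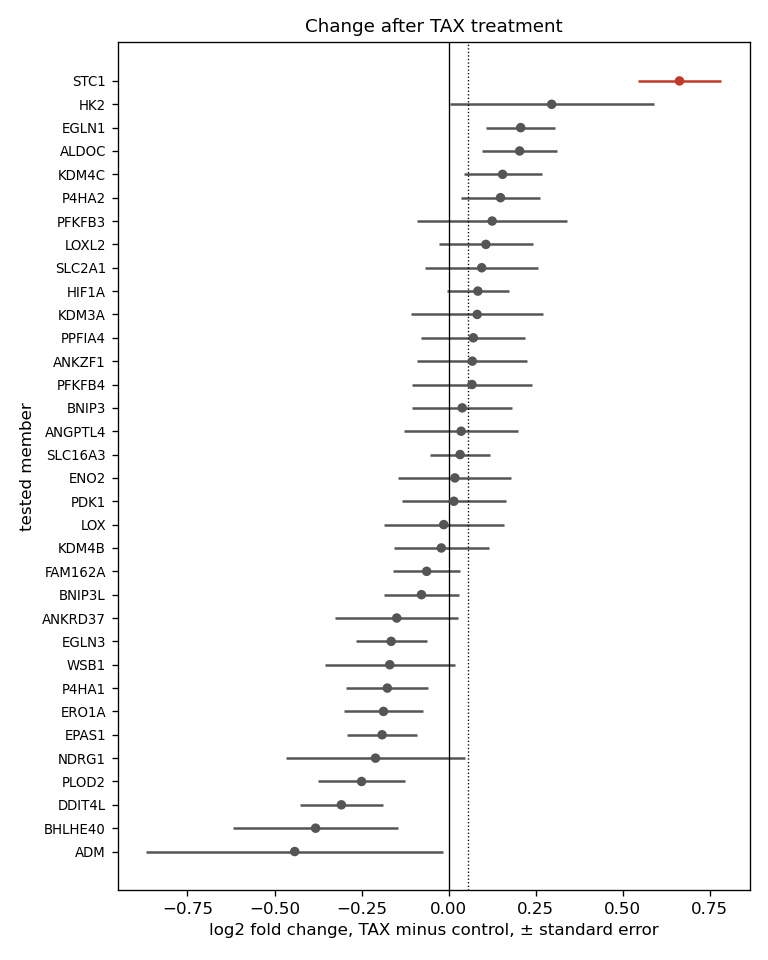
Log2 fold change of each tested member, TAX minus control, on the log2(FPKM + 1) scale, with the standard error of limma as a line. The red point is STC1 at 0.66, the solid line marks 0 and the dotted line marks 0.054, the median of all tested genes.

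None of the 4 members that sense oxygen or encode HIF alpha passed the test (limma, 0 also at an unadjusted p under 0.05), with 2 higher and 2 lower. HIF1A had 129.5, 127 and 109.8 FPKM in the control libraries, in the order of replicates 1, 2 and 3 used throughout, and 127, 130.3 and 130.0 FPKM in the TAX libraries. Its groups overlapped, and control replicate 3 was the only library away from the others (log2 fold change 0.08, limma adjusted p = 0.765). EPAS1, the gene of the other alpha subunit, had 22.5, 24.5 and 18.6 FPKM in the control and 19.3, 18.1 and 19.3 FPKM in the TAX libraries. Control replicates 1 and 2 were the 2 highest libraries and control replicate 3 lay among the TAX libraries (log2 fold change -0.19, limma adjusted p = 0.546).

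EGLN1, the main hydroxylase that targets HIF alpha, had 44.9, 52.4 and 42.0 FPKM in the control and 56.7, 49.5 and 54.6 FPKM in the TAX libraries. Only control replicate 2 and TAX replicate 2 crossed, and the log2 fold change was 0.21 with a standard error of 0.10 (limma adjusted p = 0.507). EGLN3, a hydroxylase that HIF itself induces, had 5.89, 6.48 and 4.93 FPKM in the control and 5.12, 4.55 and 5.39 FPKM in the TAX libraries, again with overlap (log2 fold change -0.17, limma adjusted p = 0.605). Of 13 other tested genes of oxygen sensing and HIF partners, among them VHL, ARNT, HIF1AN and EP300, 0 passed the test. By unadjusted p it was also 0 (limma, smallest adjusted p of 0.507). Of these 13 genes 9 were higher and 4 lower, beside 8537 higher of all 12359 tested genes.

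Among the secreted signals, ADM, which encodes the vasodilator peptide adrenomedullin, varied more than any other tested member. ADM had 5.86, 17.2 and 4.13 FPKM in the control and 7.51, 2.68 and 7.13 FPKM in the TAX libraries. The highest library, control replicate 2, had 6.39 times the level of the lowest, TAX replicate 2, and 4.16 times that of control replicate 3 of its own group. Its log2 fold change after TAX was -0.44 with a standard error of 0.43 (limma adjusted p = 0.738), and without control replicate 2 it was 0.10. ANGPTL4, an inhibitor of lipoprotein lipase, had between 18.9 FPKM in control replicate 3 and 30.1 FPKM in control replicate 2, with group means of 25.4 and 25.8 FPKM.

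**Figure D2:**
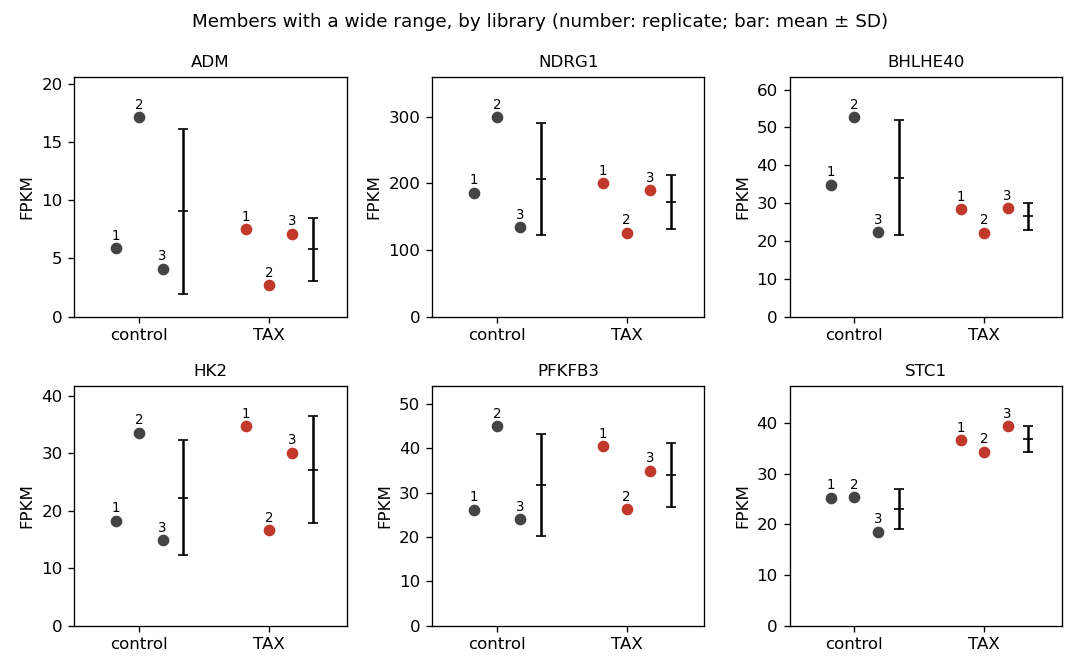
FPKM of 6 members in each library (numbers are replicates), with mean ± SD of the 3 libraries of a group beside the points, on linear axes from 0. In ADM, NDRG1, HK2 and PFKFB3 control replicates 1 and 3 and TAX replicate 2 lie below the other libraries, in BHLHE40 control replicate 2 at 52.7 FPKM stands alone, and STC1 is the panel where the groups are apart.

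Of the genes for glucose uptake and use, all 7 tested members had a log2 fold change above 0, from 0.02 to 0.30. So did 8537 of all 12359 tested genes. After quantile normalization, and also with libraries brought to one median, only 5 of the 7 members were higher. Of the 7, 0 passed the test (limma adjusted p from 0.543 to 0.975) and 0 had an unadjusted p under 0.05. HK2, the hexokinase that HIF induces, had 18.3, 33.6 and 14.9 FPKM in the control and 34.7, 16.6 and 30.1 FPKM in the TAX libraries. The 3 high values and the 3 low values were thus each drawn from both groups, and the log2 fold change of 0.30 had a standard error of 0.29 (limma adjusted p = 0.747). The HK2 value was 0.62 without control replicate 2 and 0.06 without control replicate 3. PFKFB3 and PFKFB4 make the allosteric activator of phosphofructokinase. PFKFB3 had 26.2, 45.1 and 24.1 FPKM in the control and 40.5, 26.3 and 35.0 FPKM in the TAX libraries. PFKFB4 had 13.9, 18.4 and 10.6 FPKM in the control and 16.5, 12.0 and 15.8 FPKM in the TAX libraries. In both, as in HK2, control replicate 2 and TAX replicates 1 and 3 lay above the other libraries, and control replicate 3 was the lowest. Their log2 fold changes of 0.12 and 0.07 turned to -0.04 and -0.12 without control replicate 3.

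SLC2A1, the glucose transporter GLUT1, ranged from 54.0 FPKM in control replicate 3 to 87.7 FPKM in control replicate 2, and ENO2, an enolase, from 35.4 to 55.6 FPKM in the same libraries. SLC2A3, the related transporter GLUT3, stayed between 0.0214 and 0.195 FPKM. PDK1, a pyruvate dehydrogenase kinase, had its highest value in control replicate 1 at 8.75 FPKM and its lowest in control replicate 3 at 5.82 FPKM. ALDOC, an aldolase, went another way, with 1.58, 1.84 and 1.34 FPKM in the control and 1.89, 2.37 and 1.69 FPKM in the TAX libraries, so that TAX replicate 2 was its highest library (log2 fold change 0.20, limma adjusted p = 0.543). The lactate exporter SLC16A3 varied least of all tested members, with a highest value 1.15 times the lowest, between 76.6 and 88.3 FPKM. The carbonic anhydrase gene CA9 was listed at 0 in all 6 libraries, and CA12 lay between 0.894 and 1.01 FPKM.

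Of the 6 genes of collagen and matrix maturation 2 were higher and 4 lower, also under both scalings, and 0 passed the test (limma adjusted p from 0.529 to 0.979) or had an unadjusted p under 0.05. PLOD2, a lysyl hydroxylase, had the highest mean level of the members, with 325, 385 and 296 FPKM in the control and 313, 242 and 290.1 FPKM in the TAX libraries. Only TAX replicate 1 reached into the control range, and the log2 fold change was -0.25 with a standard error of 0.13 (limma adjusted p = 0.529). The collagen prolyl hydroxylase P4HA1 and the endoplasmic reticulum oxidase ERO1A shared the highest library, control replicate 2, and the lowest, TAX replicate 2, with log2 fold changes of -0.18 and -0.19. P4HA2, the lysyl oxidase LOX and its relative LOXL2 had log2 fold changes of 0.15, -0.01 and 0.11, and each was lowest in control replicate 3.

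The mitophagy receptors BNIP3 and BNIP3L had group means of 93.5 and 95.9 FPKM and of 79.8 and 75.4 FPKM in control and TAX cells, and FAM162A, a mitochondrial protein, 15.8 and 15.1 FPKM. ANKZF1, which acts in ribosome quality control, had 16.1 and 16.8 FPKM. GENCODE 29 names 39 BNIP3 pseudogenes, so reads of BNIP3 may be shared with them. The histone demethylase genes KDM3A, KDM4B and KDM4C all had control replicates 1 and 3 and TAX replicate 2 below the other libraries. KDM3A showed it most, with 22.4, 27.6 and 19.0 FPKM in the control and 28.2, 17.0 and 29.2 FPKM in the TAX libraries (log2 fold change 0.08, limma adjusted p = 0.898, and -0.05 without TAX replicate 3).

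Among regulators of transcription and stress, NDRG1, a stress-responsive gene widely used as a marker of hypoxia, had 186, 299.8 and 134 FPKM in the control and 201, 126 and 190.4 FPKM in the TAX libraries. Control replicate 2 had 2.23 times the level of control replicate 3, and the group difference of -0.21 on the log2 scale had a standard error of 0.26 (limma adjusted p = 0.793). It turned to 0.10 without control replicate 2. BHLHE40, a transcriptional repressor, had 34.8, 52.7 and 22.4 FPKM in the control and 28.4, 22.2 and 28.7 FPKM in the TAX libraries. Control replicates 1 and 2 were its 2 highest libraries, and the TAX libraries lay close together (log2 fold change -0.38, standard error 0.24, limma adjusted p = 0.605). The BHLHE40 value was -0.09 without control replicate 2 and -0.69 without control replicate 3.

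WSB1, a substrate receptor of a ubiquitin ligase, had 33.4, 46.9 and 27.1 FPKM in the control and 37.3, 24.9 and 31.8 FPKM in the TAX libraries. ANKRD37, a small ankyrin-repeat protein, had 1.79, 3.14 and 1.83 FPKM in the control and 2.62, 1.35 and 1.81 FPKM in the TAX libraries. In both, the highest library was control replicate 2 and the lowest TAX replicate 2, and the groups overlapped (limma adjusted p = 0.774 and 0.788). Their log2 fold changes of -0.17 and -0.15 turned to 0.04 and 0.04 without control replicate 2. DDIT4L, an inhibitor of mTORC1 signaling, had 1.68, 2.37 and 1.64 FPKM in the control and 1.63, 1.30 and 1.09 FPKM in the TAX libraries. On the values as deposited it was the only member with all TAX values below all control values, with control replicate 3 and TAX replicate 1 close to each other, and after quantile normalization its groups overlapped. Its log2 fold change was -0.31 with a standard error of 0.12 (limma adjusted p = 0.429), and it was -0.47 with a pseudocount of 0.1 and -0.19 without control replicate 2. PPFIA4, a liprin, had group means of 8.16 and 8.72 FPKM.

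The larger pattern in these genes ran across the treatment. Control replicate 2 was the highest library for 20 of the 34 members, where it was so for 19.4% of all tested genes. TAX replicate 2 was the lowest for 14 members, where it was so for 7.65% of all genes. Control replicate 3 was the lowest for 18 members, but it was also the lowest for 58.0% of all genes. The highest value of a member was 1.15-fold to 6.39-fold its lowest, with a median of 1.58-fold, beside a median of 1.29-fold over all tested genes.

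**Figure D3:**
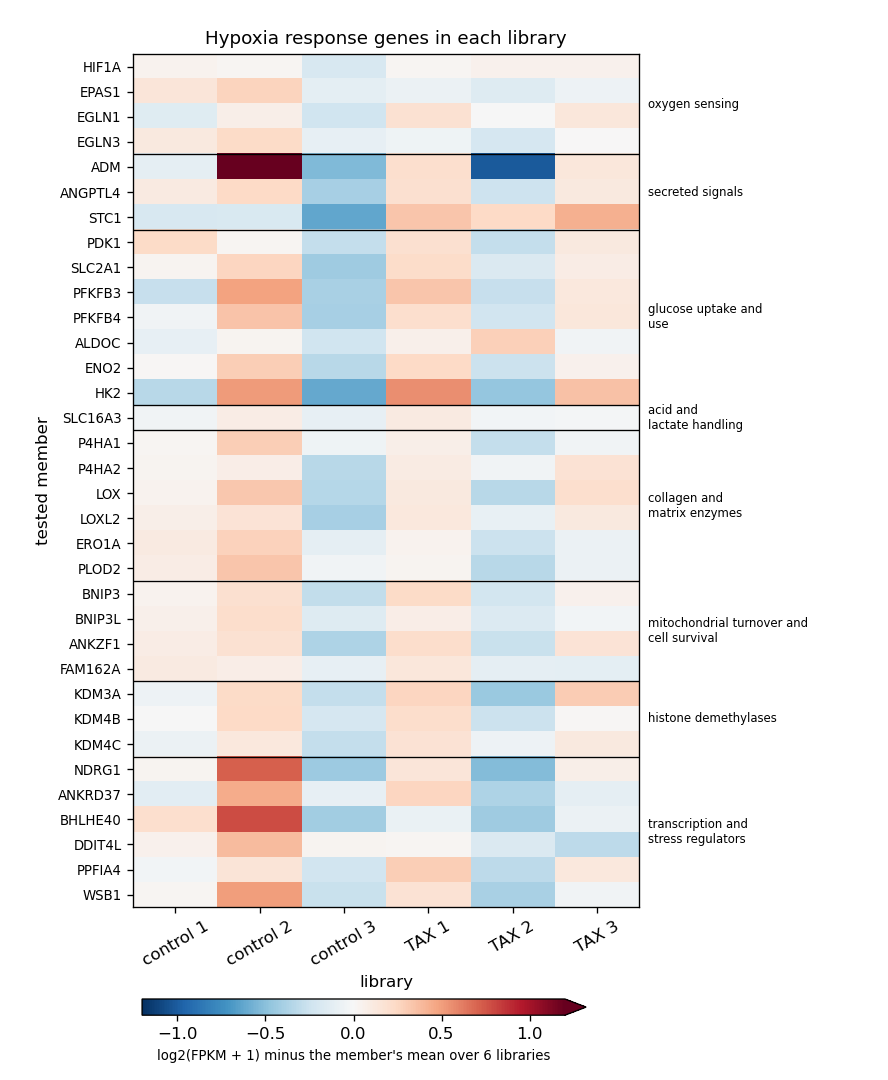
Log2(FPKM + 1) of the 34 tested members in each library minus the mean of the member over the 6 libraries, grouped by role, with red above and blue below the mean and values above 1.2 drawn in the darkest red. Control replicate 2 and TAX replicate 1 are mostly red, control replicate 3 and TAX replicate 2 mostly blue, and STC1 is red in the 3 TAX libraries alone.

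Within the control group, all 34 members were higher in replicate 2 than in replicate 3 (80.8% of all genes), with a median ratio of 1.40 beside 1.13 for all genes, and 31 were higher in replicate 2 than in replicate 1 (49.0% of all genes), with a median ratio of 1.17 beside 0.997. Within the TAX group, 32 members were higher in replicate 1 than in replicate 2 (47.1% of all genes), with a median ratio of 1.31 beside 0.992. In the same way 30 were higher in TAX replicate 3 than in TAX replicate 2 (46.0% of all genes), with a median ratio of 1.21 beside 0.990. The library with low values in the TAX group carries the same replicate number as the library with high values in the control group, and the labels attach no shared day or batch to a number.

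Control replicates 1 and 3 and TAX replicate 2 all lay below the other 3 libraries for 19 of the 34 members (55.9%), where 13.0% of all tested genes showed this order. For 0 members they all lay above, where 3.66% of all genes did. The 19 members were EGLN1, ADM, ANGPTL4, SLC2A1, PFKFB3, PFKFB4, ENO2, HK2, SLC16A3, P4HA2, LOX, LOXL2, BNIP3, ANKZF1, KDM3A, KDM4B, KDM4C, NDRG1 and PPFIA4. They included 5 of 7 tested genes of glucose uptake and use and 3 of 3 histone demethylases, but 1 of 4 genes of oxygen sensing. Among these 19, control replicate 2 was highest for 10, TAX replicate 1 for 7 and TAX replicate 3 for 2. Since these libraries were set apart for this order, no test is given.

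The same count was made with the lower level of control replicate 3 taken into account. With all libraries brought to one median, 18 of the 34 members (52.9%) showed this order, beside 7.95% of all genes, and after quantile normalization it was 17 members, beside 9.52%. Without control replicate 3, the remaining libraries showed the order for 20 members, beside 13.7% of all genes. Of 19 other tested HIF targets 11 showed the order, among them DDIT4 but not VEGFA, and 8 did with libraries brought to one median. Of 13 genes of the ATF4 stress response, a program set off by amino acid shortage and endoplasmic reticulum stress, 12 showed it. DDIT3, an ATF4 target, had 26.9, 66.0 and 21.6 FPKM in the control and 49.5, 23.4 and 44.0 FPKM in the TAX libraries.

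By contrast, 2 of 13 glycolytic enzymes, 2 of 13 genes of oxygen sensing and HIF partners and 0 of 8 mitochondrially encoded genes showed this order. The list of glycolytic enzymes leaves out HK2, ENO2 and ALDOC, which were counted with the members. Of these, HK2 and ENO2 showed the order and ALDOC did not. The difference between lists was not tested. Of the mitochondrially encoded genes 5 lay in the opposite order, higher in control replicates 1 and 3 and TAX replicate 2, and the count was 7 with libraries brought to one median and 0 after quantile normalization. Over all 12359 tested genes 452 lay in that opposite order as deposited, 1483 with libraries brought to one median and 1154 after quantile normalization. The part of the ATF4 genes and of the mitochondrial transcripts in the order of the members was not tested, and the labels give no cell density or oxygen level for any culture. No other HIF target, glycolytic enzyme or ATF4 gene of these lists passed the test for TAX treatment (limma, smallest adjusted p of 0.492, 0.516 and 0.493), and 0 of them had an unadjusted p under 0.05.

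**Figure D4:**
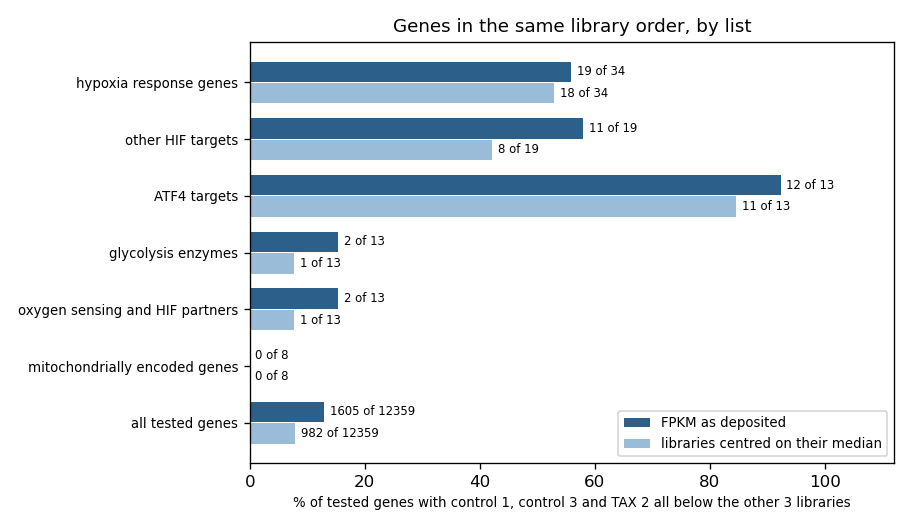
Share of the tested genes of each list, in percent, for which control replicates 1 and 3 and TAX replicate 2 all lay below the other 3 libraries, with FPKM as deposited (dark bars) and with all libraries brought to one median (light bars). The members stand at 55.9% and 52.9%, beside 13.0% and 7.95% of all tested genes, and the ATF4 targets at 92.3% and 84.6%.

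Positions in GENCODE 29 (GRCh38, the build named for these data) were found for all 34 tested members. STC1 lies on chromosome 8 from 23841915 to 23854807 on the minus strand, and no exon of another gene overlaps its exons. Exons of 20 members overlap those of another gene, such as HIF1A with HIF1A-AS1, BHLHE40 with BHLHE40-AS1 and PFKFB4 with UCN2. The strand setting of the counting is not given in the sources used here, so reads of pairs on opposite strands cannot be told apart. UCN2 lies on the same strand as PFKFB4, where a strand setting would not separate the reads.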

How the data were processed

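RNA of control and TAX-treated DU145 cells was sequenced in 6 libraries, 3 per group. The authors deposited 1 table per library, without pooling replicates, each holding an expression value for every gene that is treated as FPKM, since the values are decimals with unequal sums and 3130 identifiers carry the MSTRG prefix of StringTie. TPM cannot be told from FPKM with certainty. The submitters' processing notes name HISAT2 2.2.0, StringTie 2.1.2 and GRCh38, while filters, annotation and strand setting are not given in the sources used here.

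Differences of log2(FPKM + 1), with a pseudocount of 1, were tested without covariates by the moderated linear model of limma (version 3.58.1, R 4.3.3, variance trend on) over genes that reached 1 FPKM in 3 or more libraries. Adjustment of p followed Benjamini and Hochberg over all 12359 genes. The fit was tested on simulated data with independent noise for each gene and added changes larger than that of STC1. The simulation held no shift of a whole library and no order shared by genes, so it does not cover those features of these data. A fold change on this scale understates that of low genes. The members, the lists of other genes and the compared libraries were chosen with earlier results of these data known. Values in all libraries are given for HIF1A, EPAS1, EGLN1 and EGLN3, every member with an adjusted p under 0.05, the 6 members with the smallest p and the 10 with the largest range over libraries. Other members are given by role. Alternatives were a pseudocount of 0.1, no filter or a filter at 0.5 FPKM, quantile normalization, subtraction of each library's median on the log2 scale, no variance trend, a replicate block and leaving out each library in turn. Upstream sequences were taken from RefSeq for GRCh38.p14.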

Additional observations from a re-analysis of the deposited data

How the results depend on the processing

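With 1 member past the adjusted p of 0.05 in the analysis reported, the count was 0 with a pseudocount of 0.1, with no filter, with a filter at 0.5 FPKM, with a replicate block and in each fit that left out 1 library (limma; 1 to 7 members then had an unadjusted p under 0.05), and 1 after quantile normalization, after centring and without trend. Over all genes 59 passed as reported, 53 with either the pseudocount of 0.1 or the filter at 0.5 FPKM, 95 and 96 after quantile normalization and centring, 26 with the replicate block, 1 with no filter and 19 to 40 when 1 library was left out. The cause was not tested. Same-numbered libraries did not deviate together (r of their deviations across genes -0.117, -0.333 and -0.171, while control replicate 2 with TAX replicate 1 gave 0.278 and control replicate 3 with TAX replicate 2 gave 0.292). The deviations within a group sum to 0, so these values cannot decide whether the numbers pair the samples, and the labels do not say. The members without overlap between groups, 2 as reported (beside 17.9% of all genes), were 4 after quantile normalization (17.9%), 6 after centring (18.7%) and 3 to 7 of 34 when 1 library was left out (24.6% to 31.5%), and none of the shares of members exceeded that of all genes. The median change of the members relative to all genes, -0.029, lay between -0.13 and 0.080 when 1 library was left out, within the spread between libraries. Under the other filters, pseudocount and scalings, 17 to 19 members had control replicates 1 and 3 and TAX replicate 2 lowest. The same order held there for 7.95% to 13.0% of all genes. When 1 library was left out, an alternative chosen after the data were examined, it held for 19 to 27 members. The shares of all genes were then 13.7% to 25.9%, with 23.5% beside the 27 members without control replicate 1. With fewer libraries the order is easier to meet. Of the 17 members given in full, 10 kept the sign of their change in all alternatives, and 15, all but STC1 and EGLN1, moved by over 1.5 times or turned when 1 library was left out. Leaving out 1 library turned the sign of 7, whose log2 fold changes then ranged from -0.816 to 0.096 for ADM, from -0.481 to 0.096 for NDRG1, from -0.346 to 0.038 for WSB1, from -0.313 to 0.037 for ANKRD37, from -0.040 to 0.398 for PFKFB3, from -0.050 to 0.324 for KDM3A and from -0.117 to 0.255 for PFKFB4. Depth is unknown, so the smallest difference detectable in low members such as SLC2A3 cannot be stated.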
